A study of Mus musculus with 46 samples.

Results

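Bone marrow-derived macrophages (BMDM) sorted from gliomas that had recurred after radiation (IR) were compared with BMDM sorted 5 days after IR. The libraries were chosen by sample title, as BMDM libraries of recurrent IR mice (4 mice) and of 5-day IR mice (2 mice, the number given for that stage), which makes 6 of the 46 libraries of the series. The series profiled BMDM and microglia (MG), macrophages that live in the brain from development, from the same 23 mice by RNA sequencing, in tumours that were regressing or growing under therapy. The therapies were IR, BLZ945, which inhibits the receptor for the growth factor CSF1, and their combination.

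All mice were of the nTVA strain with Ink4a/Arf deleted on both alleles, and all tumours were started at 5 to 6 weeks of age by intracranial injection of DF1 cells that produce the RCAS-PDGFB-HA virus, so the PDGFB-driven tumour and the Ink4a/Arf deletion are shared by both groups. The recurrent IR mice are numbered 68343, 68344, 68345 and 68346, and the 5-day IR mice 65698 and 65972. Recurrence is a stage and not a fixed time, and its day and the radiation dose are not given in the sources used here. The BMDM gate took CD45+CD11b+ cells that were Ly6C-, Ly6G- and CD49d+, a gate that dendritic cells and border-associated macrophages can also meet. No mouse is in both groups.

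Radiation breaks DNA and activates p53, a transcription factor that induces the cell cycle inhibitor Cdkn1a and a set of damage response genes. Monocytes enter gliomas from blood along chemokines such as Ccl2, become macrophages there, and can present antigen through MHC class II. Dividing cells make the spindle and chromosome genes of mitosis, which a cell outside the cycle keeps low.

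Total counts were 11947076 to 14073866 in the recurrent libraries and 12111046 and 11840629 in the 5-day libraries of mice 65698 and 65972. Genes with at least 10 counts numbered 12171 to 12277 in recurrent libraries, against 10148 in mouse 65698 and 11418 in mouse 65972. The 4 recurrent libraries resembled each other (Pearson r of log2 CPM, counts scaled to library size, across genes 0.969 to 0.983) more than the 2 5-day libraries did (0.862), and genes are not independent replicates. All 6 BMDM libraries had Y-linked expression, but the MG library of mouse 65698 had Xist, so the labels of that mouse are in doubt and results are also given without it. Ptprc, which encodes CD45, lay at 8.89 to 9.25 log2 CPM in recurrent BMDM and at 9.62 or more in both 5-day libraries. It did not pass edgeR's quasi-likelihood test (log2 fold change -0.74, adjusted p = 0.129). Itga4, which encodes the CD49d antigen of the gate, lay at 5.88 to 6.15 in recurrent BMDM and at 5.24 and 7.41 in 5-day BMDM, and did not pass (log2 fold change -0.70 ± 0.44, adjusted p = 0.297). Cdkn2a, the deleted Ink4a/Arf gene, held too few counts to be tested.

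3 abundant transcripts set the 2 groups apart as a whole. Malat1, a nuclear noncoding RNA, lay at 7.79 to 8.64 log2 CPM in recurrent libraries, against 14.07 in mouse 65698 and 12.78 in mouse 65972. Lars2, a gene for a mitochondrial leucyl-tRNA synthetase, lay at 11.6 to 12.76 in recurrent libraries, against 1.91 and 4.37 in the 5-day libraries. Rn45s, the ribosomal RNA precursor, lay at 10.98 to 12.19 in recurrent libraries, against 6.33 and 6.74. Stage and these levels cannot be told apart in the 6 libraries, and calls are therefore also given with the Malat1 minus Lars2 level as a covariate, estimated over all 23 BMDM libraries. With it 4 mitosis, 3 S phase, 1 p53, 1 dendritic cell and 1 immediate early gene passed, and no gene of the other 27 lists.

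Recurrent and 5-day BMDM differed in RNA of cell division, p53 target, chemokine, MHC class II and glycolysis genes. Of 14568 genes tested, 1029 (7.06%) were higher and 799 (5.48%) lower in recurrence by edgeR's quasi-likelihood test at a Benjamini-Hochberg adjusted p of 0.05, and all adjusted p-values below come from that test. The median log2 fold change over all genes tested was 0.21. Values of the 4 and the 2 libraries did not overlap for 31% of genes in the higher and 19.3% in the lower direction. Of the 1029 higher genes, 326 held at most 3 counts over both 5-day libraries. Without mouse 65698, 142 genes were higher and 258 lower, and with the Malat1 minus Lars2 term 31 and 6.

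**Figure D1:**
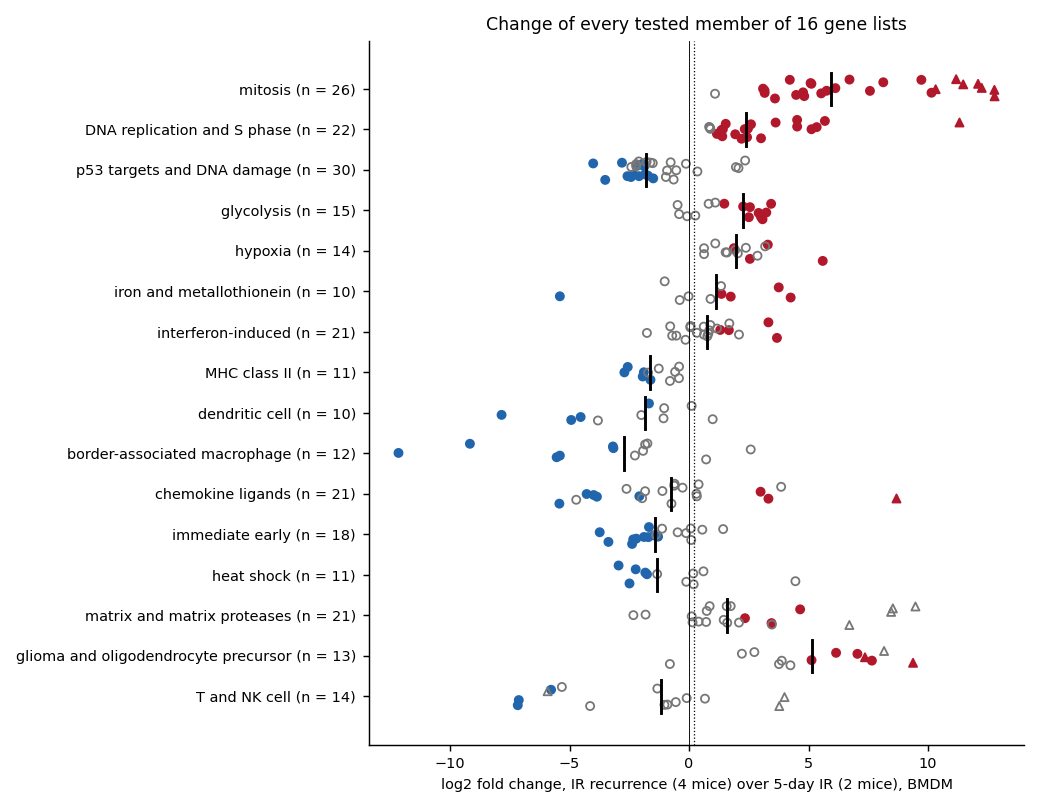
Log2 fold change of every tested member of 16 gene lists, IR recurrence (4 mice) over 5-day IR (2 mice) in BMDM. Filled points passed the test (red higher, blue lower), open points did not, triangles have no count in 1 of the groups so that their position is no measured size, black bars are list medians, and the dotted line is the median of all genes (0.21). The mitosis list lies to the right (median 5.94) and the p53 list mostly to the left (median -1.81).

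Mitosis genes were the group with the largest median change among the 32 lists. Of 26 tested, 25 were higher in recurrence and none lower, with a median log2 fold change of 5.94 against 0.21 over all genes, and all 26 were higher in each recurrent library than in either 5-day library. Birc5, a survivin that guides chromosome segregation (chromosome 11, 117849251 to 117855743, plus strand), had levels of 6.24, 5.85, 6.50 and 6.14 log2 CPM in recurrent BMDM and no count in either 5-day library. Against a floor of 3 counts over the 5-day group it was at least 530-fold higher (adjusted p = 4.11e-08). Prc1, which bundles microtubules of the dividing spindle (chromosome 7, 80294450 to 80316259, plus strand), had levels of 5.90, 5.98, 6.36 and 6.45 in recurrent BMDM and no count at 5 days, at least 524-fold higher (adjusted p = 2.1e-06). Both genes were thus read in every recurrent library and in neither 5-day library. Ccnb1, cyclin B1 of the entry into mitosis, had levels of 6.43, 5.98, 6.80 and 6.44 in recurrent BMDM, against 2 counts in mouse 65698 and 0 in mouse 65972 (adjusted p = 5.71e-05).

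The other largest rises with no count at 5 days were also division genes. They were the condensin subunit Ncapd2 (at least 332-fold, adjusted p = 7.47e-07), the spindle checkpoint kinase Bub1b (at least 367-fold), the spindle protein Nusap1 (at least 326-fold), the microtubule motor Kif2c (at least 264-fold), the cytokinesis scaffold Anln (at least 246-fold) and Hmmr (at least 212-fold). Cdk1, the kinase that cyclin B1 activates, was detected at both stages, at 6.36 to 6.93 in recurrence and at 3.51 and 3.49 at 5 days (log2 fold change 3.16 ± 0.44, adjusted p = 0.000142). Mki67, a marker of cycling cells, had levels of 6.19, 6.2, 6.16 and 6.69 in recurrence and 3.37 and 3.10 at 5 days (3.09 ± 1.02, adjusted p = 0.0489). Cenpf was the 1 mitosis gene that did not pass (1.08 ± 1.06, adjusted p = 0.533). In bulk libraries fewer cells of a type and less RNA per cell cannot be told apart, so the change can be in the number of dividing cells or in their RNA.

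DNA replication and S phase genes were also higher, by less. Of 22 tested, 19 were higher and none lower, with a median of 2.38. Tk1, thymidine kinase, had levels of 5.71, 5.27, 6.16 and 5.52 in recurrence and -0.22 and 0.39 at 5 days (5.68 ± 0.54, adjusted p = 2.1e-06). Mcm5, a subunit of the replicative helicase, had 7.21, 6.90, 7.28 and 6.94 in recurrence and 3.09 and 1.85 at 5 days (4.52 ± 0.47, adjusted p = 7.93e-06). Neither gene's libraries overlapped between the stages. Rrm2, which makes deoxynucleotides, had 6.65 to 6.86 in recurrence and 2.35 and -1.53 at 5 days (5.34 ± 0.77, adjusted p = 0.000218), while Pcna (0.84), Cdc6 (0.89) and Pola1 (0.87) did not pass.

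Vehicle mice give a further stage for the division genes. The mean level of the mitosis list was 4.22 to 5.16 log2 CPM in the 4 vehicle BMDM libraries, -1.64 and -0.60 at 5 days and 5.37 to 5.75 in recurrence. The mean of the S phase list was 4.74 to 5.34 in vehicle, 2.62 and 2.68 at 5 days and 5.49 to 5.95 in recurrence. The 5-day libraries were the lowest of the 3 stages on both lists. Without mouse 65698, 16 mitosis and 11 S phase genes passed (12 S phase genes without mouse 65972), and Anln (adjusted p = 0.0649), Nusap1 (0.0631) and Mki67 (0.235) did not, while Mki67 also did not pass without mouse 65972 (0.164). With the Malat1 minus Lars2 term, 4 mitosis and 3 S phase genes passed, and Birc5, Prc1, Ccnb1, Ncapd2, Hmmr, Mcm5, Tk1 and Rrm2 passed under all 14 alternatives.

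The promoters of the 3 mitosis genes of smallest p and of Mdm2, the p53 target of smallest p, are shown because the mitosis genes were higher together and the p53 targets lower. The sequences are from RefSeq (GRCm38.p6), 250 bases before to 50 after the start. Capitals mark the words CCAAT and TTTGAA (or its variant TTCGAA) on either strand in the mitosis genes, and a p53 half-site in Mdm2.
Birc5, chr11:117848987-117849286, plus strand: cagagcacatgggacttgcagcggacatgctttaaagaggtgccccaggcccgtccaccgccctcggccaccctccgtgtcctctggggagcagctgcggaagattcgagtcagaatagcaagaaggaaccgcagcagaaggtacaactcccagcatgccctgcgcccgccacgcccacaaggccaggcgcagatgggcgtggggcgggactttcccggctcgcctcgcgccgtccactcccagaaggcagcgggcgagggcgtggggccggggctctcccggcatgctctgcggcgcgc
Prc1, chr7:80294201-80294500, plus strand: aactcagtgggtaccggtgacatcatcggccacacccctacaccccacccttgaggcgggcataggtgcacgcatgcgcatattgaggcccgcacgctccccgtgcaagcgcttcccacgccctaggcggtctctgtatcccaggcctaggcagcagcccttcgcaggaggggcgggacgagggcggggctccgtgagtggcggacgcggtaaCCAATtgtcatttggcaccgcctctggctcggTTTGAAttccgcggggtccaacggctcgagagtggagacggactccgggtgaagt
Ccnb1, chr13:100786437-100786736, minus strand: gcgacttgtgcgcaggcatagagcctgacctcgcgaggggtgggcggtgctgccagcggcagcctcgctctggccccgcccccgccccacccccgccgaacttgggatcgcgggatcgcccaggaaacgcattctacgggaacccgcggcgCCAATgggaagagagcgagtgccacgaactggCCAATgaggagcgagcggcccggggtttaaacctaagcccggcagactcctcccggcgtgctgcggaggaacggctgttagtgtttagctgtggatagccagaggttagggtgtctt
Mdm2, chr10:117710709-117711008, minus strand: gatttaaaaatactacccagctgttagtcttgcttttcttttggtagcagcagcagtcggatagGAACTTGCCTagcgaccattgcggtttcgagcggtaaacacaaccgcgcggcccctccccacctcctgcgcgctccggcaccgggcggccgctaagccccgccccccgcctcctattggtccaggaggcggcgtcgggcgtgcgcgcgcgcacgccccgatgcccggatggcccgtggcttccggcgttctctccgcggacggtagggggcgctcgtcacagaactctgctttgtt

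Prc1 holds CCAAT at base -37 and TTTGAA at base -5 from its start, and Ccnb1 holds CCAAT at bases -99 and -67. Birc5 holds none of the 3 words in this window, and has a p53 half-site at base -228 that is not in capitals. CCAAT was in the windows of 19 of the 21 mitosis genes that the table held (90.5%) and in 37.9% of all 27025 windows, and TTTGAA with its variant TTCGAA in 16 (76.2%) and in 19.4% of all. The p53 half-site, a motif of 10 letters searched on both strands, was in 8 of 22 p53 list windows (36.4%) in 3 of 21 mitosis windows (14.3%) and in 8.37% of all. In Mdm2 it starts at base -186, and a CCAAT at base -72 is not in capitals. CCAAT was in 11 of 22 p53 list windows (50%). None of the marked motifs overlaps another, and a match is a description and not a binding site.

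p53 target genes were lower in recurrence. Of 30 genes tested, 13 were lower and none higher, with a median log2 fold change of -1.81. Cdkn1a, the p21 inhibitor of cyclin-dependent kinases (chromosome 17, 29090976 to 29100727, plus strand), had levels of 8.64, 8.40, 8.12 and 8.52 log2 CPM in recurrence and 10.66 and 11.04 at 5 days. It was 5.4-fold lower (-2.43 ± 0.34, adjusted p = 0.000146), with no overlap. Phlda3, which restrains AKT signalling downstream of p53, had 2.68, 2.35, 3.76 and 3.06 in recurrence and 7.24 and 6.85 at 5 days (-4.01 ± 0.78, adjusted p = 0.00271). Mdm2, the ligase that degrades p53, had 6.73, 6.36, 6.58 and 6.86 in recurrence and 8.55 and 8.91 at 5 days (-2.10 ± 0.27, adjusted p = 8.37e-05).

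The members that passed included death genes as well as arrest genes. Pmaip1, which encodes Noxa (-2.81 ± 0.42), Bbc3, which encodes Puma (-2.58 ± 0.53), and Bax (-1.50 ± 0.34) were lower, as were Ccng1 (-1.95 ± 0.31) and the stress cytokine Gdf15 (-3.51 ± 1.04, adjusted p = 0.0321). Zmat3 (-2.42) and Eda2r (-2.21) had values of like size and did not pass. The mean of the list was 3.59 to 4.16 log2 CPM in vehicle, 5.55 and 5.83 at 5 days and 4.28 to 4.36 in recurrence, and the 5-day libraries were the highest of the 3 stages. For Phlda3 the vehicle libraries reached at most 0.54. Without mouse 65698, the log2 fold change was -2.61 for Cdkn1a, -3.80 for Phlda3 and -2.26 for Mdm2. With the Malat1 minus Lars2 term Cdkn1a passed edgeR's test (-3.31, adjusted p = 0.0353). Under that term Phlda3 (-6.34, adjusted p = 0.192) and Mdm2 (-1.33, adjusted p = 0.438) did not pass.

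**Figure D2:**
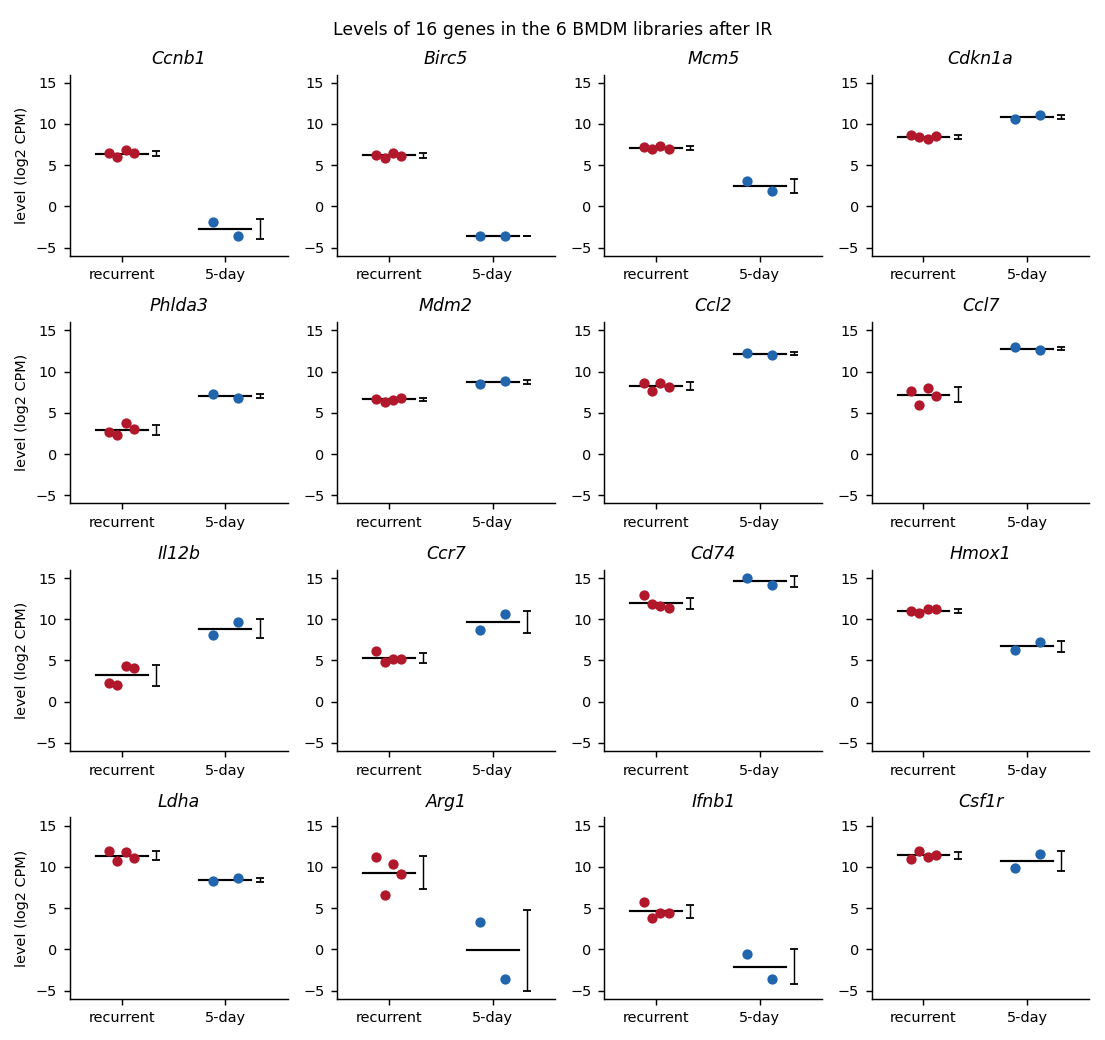
Level (log2 CPM, TMM-scaled) of 16 genes in the BMDM libraries after IR, recurrent (4 mice, red) left of 5-day (2 mice, blue). Points are libraries, lines are means and error bars SD. Cdkn1a lies at 8.12 to 8.64 in recurrence and at 10.66 and 11.04 at 5 days, and Csf1r overlaps between the stages.

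Chemokine ligands moved both ways. Of 21 chemokine ligands, 5 were lower and 3 higher, with a median of -0.74. Ccl2, the main ligand that draws monocytes through Ccr2, had 8.62, 7.66, 8.65 and 8.14 log2 CPM in recurrence and 12.29 and 12.06 at 5 days, 14.5-fold lower (-3.86 ± 0.82, adjusted p = 0.00521). Ccl7, another ligand of Ccr2, had 7.69, 5.99, 8.04 and 7.04 in recurrence and 12.93 and 12.67 at 5 days, 43.0-fold lower (-5.43 ± 1.28, adjusted p = 0.00984). The 5-day values of both genes lay above every recurrent value. Ccl8 (-4.29 ± 0.96), Ccl22 (-3.99 ± 0.82) and Ccl5 (-2.08 ± 0.62) were also lower, while Cxcl10 (3.32 ± 1.07), Cxcl14 (2.99 ± 0.82) and Cxcl3, with no count at 5 days, were higher. Ccr2 itself was lower, at 5.96 to 7.65 in recurrence and at 9.37 and 8.02 at 5 days (-1.96 ± 0.55, adjusted p = 0.0244). The list had 4 lower and 0 higher genes without mouse 65698, and 3 and 1 without mouse 65972. With the Malat1 minus Lars2 term no chemokine passed (Ccl2, adjusted p = 0.818), and Cxcl10 turned to -0.78. Without mouse 65698 Ccr2 (adjusted p = 0.379) and Cxcl10 (0.324) did not pass, and without mouse 65972 Ccl22 (0.309) did not.

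Of 20 cytokines and growth factors, 2 were higher and 1 lower, where 7.06% of all genes tested were higher and 5.48% lower. The list had few calls and lay near those shares, so its genes are described singly. Il12b, the p40 subunit of IL-12 and IL-23, had 2.22, 2.03, 4.37 and 4.09 in recurrence and 8.06 and 9.65 at 5 days, 46.3-fold lower (-5.53 ± 0.67, adjusted p = 4.06e-05). Tgfb1, a cytokine that restrains immune cells and drives matrix, had 6.95 to 7.41 in recurrence and 4.41 and 5.6 at 5 days (2.08 ± 0.43, adjusted p = 0.00414). Ifnb1, interferon beta, had 5.77, 3.82, 4.41 and 4.44 in recurrence and 6 and 0 counts at 5 days (adjusted p = 0.0355). The first gene was low and the other 2 high in all 4 recurrent libraries. Without mouse 65698 Il12b passed (6.09e-05), and Tgfb1 (0.107) and Ifnb1 (0.107) did not, while Ifnb1 also did not without mouse 65972 (0.134). Under the Malat1 minus Lars2 term Il12b (0.0602), Ifnb1 (0.963) and Tgfb1 (0.975) did not pass, and the sign of Tgfb1 turned (-0.21). Igf1, a growth factor that macrophages supply to glioma cells, did not pass (-0.11 ± 0.52, adjusted p = 0.916).

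Part of the MHC class II genes was lower in RNA, and MHC class I had no gene that passed. Presentation itself was not measured. Of 11 class II genes, 5 were lower and none higher (median -1.62). Cd74, the class II invariant chain, had 12.94, 11.85, 11.67 and 11.37 log2 CPM in recurrence and 15.03 and 14.15 at 5 days. Its log2 fold change was -2.57 ± 0.40 (edgeR's test, adjusted p = 0.000496). H2-Ab1, a class II chain, had 12.14, 10.78, 11.38 and 10.44 in recurrence and 14.58 and 13.18 at 5 days (-2.71 ± 0.44, adjusted p = 0.000614). In both, mouse 68343 was the highest recurrent library and did not reach the lower 5-day one. H2-Ob (-1.94 ± 0.26) and H2-DMb2 (-1.89 ± 0.36) were lower too, while H2-Aa (-1.27) and the master regulator Ciita (-0.59) did not pass. All 12 class I genes missed the threshold in edgeR's test (median 0.13), where 2 were higher and 1 lower at an unadjusted p under 0.05 and DESeq2 called 1 higher and 1 lower. Without mouse 65698, 3 class II genes passed, and with the Malat1 minus Lars2 term none did (Cd74, adjusted p = 0.531; H2-Ab1, 0.539).

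Dendritic cell markers were lower with them. Of 10 tested, 4 were lower and none higher (median -1.84). Ccr7, the lymph node homing receptor, had 6.14, 4.80, 5.13 and 5.13 in recurrence and 8.70 and 10.58 at 5 days (-4.54 ± 0.54, adjusted p = 3.59e-05). Zbtb46, a transcription factor of classical dendritic cells, had 1.16, 0.77, 1.12 and 0.05 in recurrence and 5.46 and 5.93 at 5 days (-4.93 ± 0.67, adjusted p = 0.000123). Ccr7 passed under all 14 alternatives, and Zbtb46 did not with the Malat1 minus Lars2 term (0.361). Flt3, the growth factor receptor of dendritic cells, overlapped, at 3.58 to 4.67 in recurrence and 3.97 and 6.48 at 5 days. Its log2 fold change was -1.68 ± 0.54 (edgeR's test, adjusted p = 0.0446), and turned to 0.077 without mouse 65972. Without that mouse Ccr7 was -3.31 and Zbtb46 -4.68. The mean level of the list was 4.87 to 6.44 in vehicle, 4.10 and 5.47 at 5 days and 2.41 to 3.25 in recurrence, and its part in the class II values was not tested.

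Border-associated macrophage markers, genes of macrophages at the vessels and meninges, held 2 of the 8 largest falls. Of 12 tested, 6 were lower and none higher (median -2.72). Cd209f, a C-type lectin receptor (chromosome 8, 4102787 to 4105835, minus strand), had 2, 2, 2 and 0 counts in recurrent libraries and 6234 and 6228 at 5 days (-12.16 ± 2.08, adjusted p = 0.00271). Lyve1, a hyaluronan receptor, had 6, 5, 5 and 2 counts in recurrence and 1443 and 3077 at 5 days (-9.17 ± 1.55, adjusted p = 0.00145). Both genes were near 0 in recurrence. Mrc1, the mannose receptor, had 7.18, 6.2, 5.89 and 6.34 log2 CPM in recurrence and 8.71 and 10.24 at 5 days (-3.19 ± 0.68, adjusted p = 0.0051), and did not pass without mouse 65972 (0.062). Cd163, a scavenger of haemoglobin, was 42.4-fold lower (-5.41 ± 1.25, adjusted p = 0.00911).

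7 Cd209 lectin genes on chromosome 8 were lower, and those outside the lists are named after their values were seen. Cd209a, also a dendritic cell marker, had 2.87, 2.5, 2.89 and 1.44 in recurrence and 10.85 and 9.61 at 5 days, 230.0-fold lower (-7.85 ± 0.84, adjusted p = 1.14e-05). Cd209g had 1, 0, 0 and 1 counts in recurrence and 1456 and 1409 at 5 days, and Cd209b 0, 0, 1 and 1 counts in recurrence and 735 and 877 at 5 days. Cd209c, Cd209d and Cd209e were lower at lower counts, and Cd209e did not pass without mouse 65698 (adjusted p = 0.178) or without mouse 65972 (0.0589). These genes are close paralogs, and reads could be split between them in counting. Among the other largest falls were the phospholipase Pla2g2d, the complement regulator Cd55 and Apol7c.

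Vehicle mouse 65967 lay between the 5-day and the other vehicle libraries on Cd209f and Lyve1. Its Cd209f level was 6.61 log2 CPM, against -1.98 to 0.45 in the other 3 vehicle libraries, and its Lyve1 level 4.53, against -2.03 to 1.07. Its Lars2 level was 3.02 and its Malat1 level 13.22, near those of the 5-day libraries, while the other vehicle libraries had Lars2 at 6.21 to 7.73. Its mitosis list mean was 4.36 and its Phlda3 level -3.58, far from the 5-day libraries. Its hypoxia list mean was 3.9 (5-day 3.5 and 4.0, other vehicle 5.2 to 5.4). Its matrix list mean was 2.7 (5-day 3.0 and 3.4, other vehicle 3.9 to 4.7). Its glycolysis list mean was 6.6 (5-day 6.2 and 6.3, other vehicle 7.4 to 7.5). Its Arg1 level, 3.37, was the lowest of the vehicle libraries. How far such library differences enter the stage changes was not tested. With the Malat1 minus Lars2 term no border-associated gene passed, and Cd209f was -1.83 (adjusted p = 0.948).

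**Figure D3:**
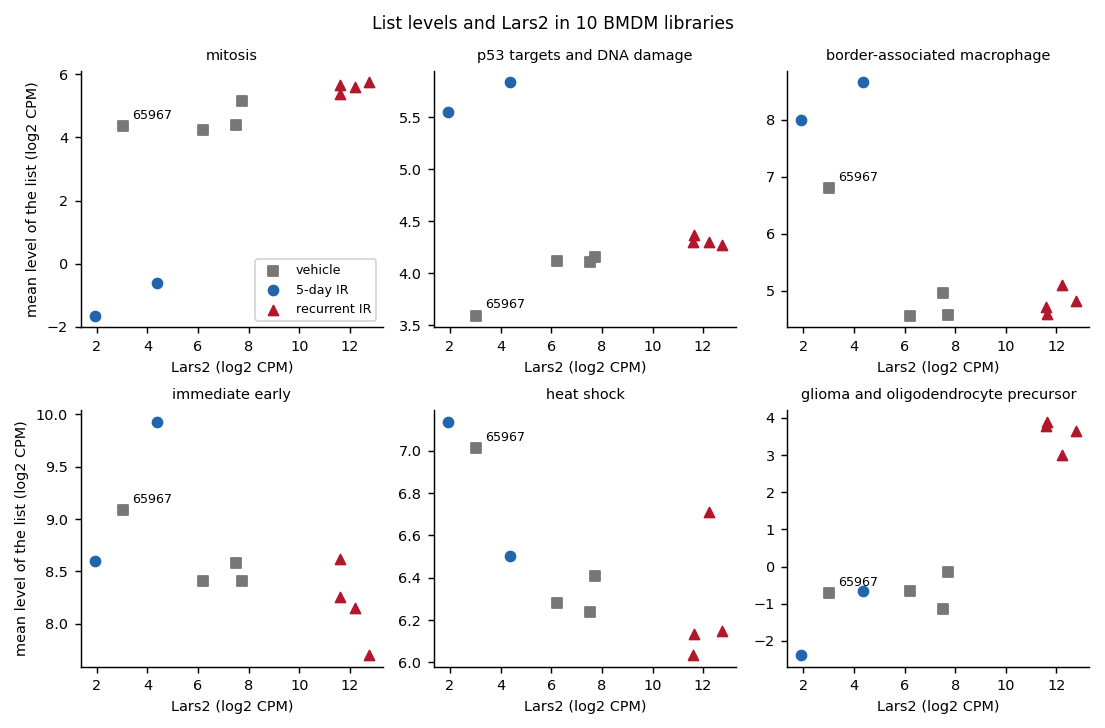
Mean level (log2 CPM) of 6 gene lists against the Lars2 level (log2 CPM) in 10 BMDM libraries, vehicle (grey squares), 5-day IR (blue circles) and recurrent IR (red triangles). Vehicle mouse 65967 (Lars2 at 3.02) lies near the 5-day libraries on the heat shock list and between them and the other vehicle libraries on the border-associated list, and with the other vehicle libraries on the mitosis list.

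Alternative activation genes moved both ways. Of 16 tested, 6 were lower and 2 higher (median -1.21). The lectin Clec10a (-3.17 ± 0.43), its relative Mgl2 (-2.97 ± 0.75) and the secreted Retnla (-5.70 ± 1.66) were lower, beside Mrc1, Cd163 and Ccl22. Arg1, arginase, which consumes arginine, had 11.19, 6.54, 10.32 and 9.15 log2 CPM in recurrence and 3.31 at 5 days in mouse 65698 and 0 counts in mouse 65972 (7.76 ± 2.49, adjusted p = 0.0447). The recurrent libraries spanned a wide range but all lay above both 5-day libraries. Arg1 in vehicle mice ran from 3.37 to 8.80, and it did not pass without mouse 65698 (0.114) or without mouse 65972 (0.164). The list had 4 lower and 0 higher genes without mouse 65698, 3 and 2 without mouse 65972, and none with the Malat1 minus Lars2 term.

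Matrix genes had 3 higher and 0 lower of 21 (median 1.6), where DESeq2 gave 8 higher. Fn1, fibronectin, had 10.24 to 11.14 in recurrence and 5.17 and 6.52 at 5 days (4.65 ± 1.38, adjusted p = 0.0324). Thbs1, thrombospondin, had 7.27 to 8.64 in recurrence and 2.43 and 5.46 at 5 days, and Tgfbi 9.80 to 11.02 in recurrence and 7.72 and 8.58 at 5 days. The libraries of these 3 genes did not overlap. Fn1 stood at 6.13 in vehicle mouse 65967, against 10.37 to 11.16 in the other vehicle libraries. Without mouse 65698 or with the Malat1 minus Lars2 term no matrix gene passed, and without mouse 65972 1 did. Tgfbi turned to -0.85 under that term.

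Glycolysis genes were higher. Of 15 tested, 9 were higher and none lower (median 2.26). Ldha, which makes lactate, had 11.90, 10.77, 11.78 and 11.08 log2 CPM in recurrence and 8.28 and 8.61 at 5 days, 8.04-fold higher (3.01 ± 0.55, adjusted p = 0.00174). Pgam1, a late glycolytic mutase, had 7.97, 7.28, 7.76 and 7.43 in recurrence and 5.11 and 4.22 at 5 days (2.91 ± 0.45, adjusted p = 0.000451). Both were higher in every recurrent library than in either 5-day library. Ldha stood at 8.55 in vehicle mouse 65967, against 10.33 to 10.58 in the other vehicle libraries. Gpi1 (2.55 ± 0.42), Pkm2 (2.26 ± 0.40), Gapdh (3.43 ± 0.63) and Tpi1 (3.07 ± 0.58) were also higher, and Hk1 (0.82) and Hk2 (1.10), which start the pathway, did not pass. Without mouse 65698, 6 of the list passed, and with the Malat1 minus Lars2 term none.

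Hypoxia genes and iron genes moved partly with them. Of 14 hypoxia genes, 4 were higher and none lower (median 1.98): the vascular peptide Adm, the lipid droplet protein Hilpda (3.29 ± 0.89), the glucose transporter Slc2a1 (2.54 ± 0.50) and the kinase Pdk1 (1.87 ± 0.42). Of 10 iron and metallothionein genes, 4 were higher and 1, Cd163, lower. Hmox1, which breaks down heme, had 10.95, 10.71, 11.27 and 11.23 in recurrence and 6.25 and 7.21 at 5 days, 19.0-fold higher (4.25 ± 0.82, adjusted p = 0.00271). Fth1, ferritin heavy chain, had 13.16 to 13.96 in recurrence and 11.83 and 11.93 at 5 days (1.74 ± 0.42, adjusted p = 0.0111), and the metallothionein Mt2 was higher (3.75 ± 0.84). Hmox1 was thus high in all 4 recurrent libraries, with a vehicle range of 7.16 (mouse 65967) to 9.95. Without mouse 65698 no hypoxia gene and none of the higher iron genes passed (Hmox1, adjusted p = 0.0667). With the Malat1 minus Lars2 term no gene of either list passed, and Fth1 turned to -0.61.

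A minority of interferon-induced genes was higher. Of 21 tested, 4 were higher and none lower (median 0.76), where 7.06% of all genes tested were higher and 5.48% lower. Rsad2, an antiviral enzyme, had 8.85, 7.40, 7.33 and 7.58 in recurrence and 2.63 and 5.02 at 5 days (3.67 ± 0.93, adjusted p = 0.0147). Isg15 (1.66 ± 0.47), Bst2 (1.30 ± 0.36) and Cxcl10 were the others. Ifit1 (0.81) and Irf7 (0.76) did not pass, and no gene of the list did without mouse 65698 or with the Malat1 minus Lars2 term.

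Immediate early genes, which are induced within minutes of a stimulus and also during cell isolation, were lower. Of 18 tested, 10 were lower and none higher (median -1.43). Dusp1, a phosphatase that switches off MAP kinases, had 9.56, 9.79, 8.92 and 9.44 log2 CPM in recurrence and 13.44 and 12.92 at 5 days, 13.4-fold lower (-3.74 ± 0.58, adjusted p = 0.000438). Egr2, a transcription factor, had 6.2 to 6.83 in recurrence and 9.69 and 10.16 at 5 days (-3.38 ± 0.48, adjusted p = 0.000187). Jun (-2.39 ± 0.52), Fos (-1.71 ± 0.36), Klf6 (-2.21 ± 0.46) and the p53 target Btg2 (-2.34 ± 0.46) were lower as well. Dusp1 stood at 12.75 in vehicle mouse 65967, above the vehicle minimum of 10.11, and with the Malat1 minus Lars2 term it was -0.35 (adjusted p = 0.964). Without mouse 65972, 5 genes of the list passed, and with that term 1, while Klf6 turned to 0.25.

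Heat shock genes had 5 lower and none higher of 11 (median -1.34). The chaperones Hspa8 (-1.83 ± 0.37), Dnaja1 (-1.76 ± 0.31) and Dnajb1 (-2.23 ± 0.56) passed without overlap, while Hspa1b overlapped. Without mouse 65698, 1 heat shock gene passed, and with the Malat1 minus Lars2 term none, where Dnajb1 turned to 0.29. Complement genes had 5 lower and 2 higher of 13. C5ar1, the receptor of the C5a fragment, was among the lower ones (-1.94 ± 0.45). The 2 higher were the integrin chains Itgam (1.87 ± 0.60, adjusted p = 0.0456) and Itgax (1.74 ± 0.37), of which Itgam encodes the CD11b antigen of the gate and neither passed without mouse 65698. Against 5 lower complement genes, 3 passed without mouse 65698 and 2 without mouse 65972. None of the list passed with the Malat1 minus Lars2 term, where Itgam turned to -0.15.

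Identity and growth factor receptor genes gave few calls. Csf1r, the receptor that BLZ945 inhibits, averaged 11.4 ± 0.42 log2 CPM in recurrence (SD, n = 4 mice), against 9.86 and 11.6 in the 5-day libraries, with overlap, and did not pass (0.47 ± 0.37, adjusted p = 0.427). Csf2ra, a chain of the GM-CSF receptor, was lower (-1.92 ± 0.32, adjusted p = 0.0008), and Csf2rb2 higher (2.13 ± 0.67). Of 18 microglia identity genes 3 were higher and 1 lower, of 18 blood-derived macrophage genes 2 higher and 2 lower, of 7 Ly6C-high monocyte genes 1 higher and 1 lower, and of 18 lipid-laden macrophage genes 2 higher. The higher microglia genes were Sall3, with no count at 5 days, Lag3 (2.99 ± 0.82) and Bin1 (1.09 ± 0.36). The lower one was Selplg (-1.035). P2ry12 (-0.41) and Tmem119 (0.55), which define microglia, did not pass. Without mouse 65698 no microglia, lipid-laden or Ly6C-high gene passed, and 1 blood-derived gene did, lower. No gene of these lists passed with the Malat1 minus Lars2 term, where Csf1r turned to -0.016 and Csf2rb2 to -0.30, and Csf2rb2 did not pass without mouse 65698 (0.31) or without mouse 65972 (0.0631). Among blood-derived genes Runx3 (1.94 ± 0.45) was higher and Ahr (-2.15 ± 0.45) lower.

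Markers of other cells moved with the stage. Of 13 glioma and oligodendrocyte precursor genes, 6 were higher and none lower, and the mean of the list was -1.15 to -0.14 log2 CPM in vehicle, -2.38 and -0.67 at 5 days and 3.01 to 3.90 in recurrence. Olig1, a factor of the oligodendrocyte lineage, had 5.52, 6.03, 6.12 and 6.40 in recurrence and 0 and 11 counts at 5 days (7.04 ± 1.91, adjusted p = 0.0212), and Nes, an intermediate filament of progenitors, was at least 49.5-fold higher. Olig1 was low in both 5-day libraries and high in all recurrent ones. None of these genes passed without mouse 65698 or with the Malat1 minus Lars2 term. The vehicle libraries carried mitosis genes at 4.22 to 5.16 with this list near its 5-day level, and the part of tumour transcripts in the recurrent mitosis, glycolysis and matrix values was not tested.

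Lymphoid and other marker lists had low mean levels, though single members did not. The myelin gene Cnp lay at 6.4 to 6.5 log2 CPM in recurrence, and the astrocyte gene Aldoc at 7.4 and 5.6 at 5 days. Of 14 T and NK cell genes 3 were lower, namely Gzma, Nkg7 and Prf1, and the mean of the list was -2.36 to -0.86 in recurrence and -1.20 and 0.94 at 5 days. Prf1 had 156 counts in mouse 65972 and 0 in mouse 65698. Without mouse 65972 Gzma (adjusted p = 0.0538), Nkg7 (0.0599) and Prf1 (0.774) did not pass, and without mouse 65698 Gzma did not (0.0767). No B cell, neuron, myelin or choroid plexus gene passed edgeR's test in either direction. At an unadjusted p under 0.05, 1 B cell, 2 neuron, 2 myelin and 1 choroid plexus gene were higher, and DESeq2 called 2, 2, 1 and 1 higher. Single genes passed from the neutrophil (Lcn2, higher), endothelial (Esam, higher) and astrocyte lists (Aldoc, lower). Lcn2 did not pass without mouse 65698 (adjusted p = 0.204) or mouse 65972 (0.112), nor did Esam (0.241 and 0.146), and Aldoc did not without mouse 65698 (0.425). With the Malat1 minus Lars2 term no gene of these lists passed, and Aldoc turned to 0.23.

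Microglia of the same mice allowed a test of whether the change differed between the populations, in 1 fit over all 46 libraries. The BMDM change exceeded the MG change for 84 of 15901 genes (0.528%) and fell short of it for 42 (0.264%). In MG alone, 744 genes (4.68%) were higher and 351 (2.21%) lower in recurrence. Mitosis genes had 23 of 26 higher in MG, with a median of 6.28, and p53 targets 12 of 30 lower, and no gene of either list differed between the populations. Il12b differed most among the cytokines, with log2 fold changes of -5.50 in BMDM and 2.41 in MG (difference -7.91 ± 1.44, adjusted p = 0.0046). Ccr7 (-4.50 in BMDM and 1.08 in MG, difference -5.58 ± 1.33), Zbtb46 (-4.91 and -0.67, difference -4.24 ± 0.95) and Ccl5 (-2.06 and 3.49, difference -5.55 ± 1.30, adjusted p = 0.0292) were also lower in the BMDM change than in the MG change. Ccl2 missed the threshold (difference -4.48 ± 1.18, adjusted p = 0.0588), and the total of 126 genes was 19 without the BMDM library of mouse 65698, 1091 without that of mouse 65972 and 6 without the MG library of mouse 65972.

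**Figure D4:**
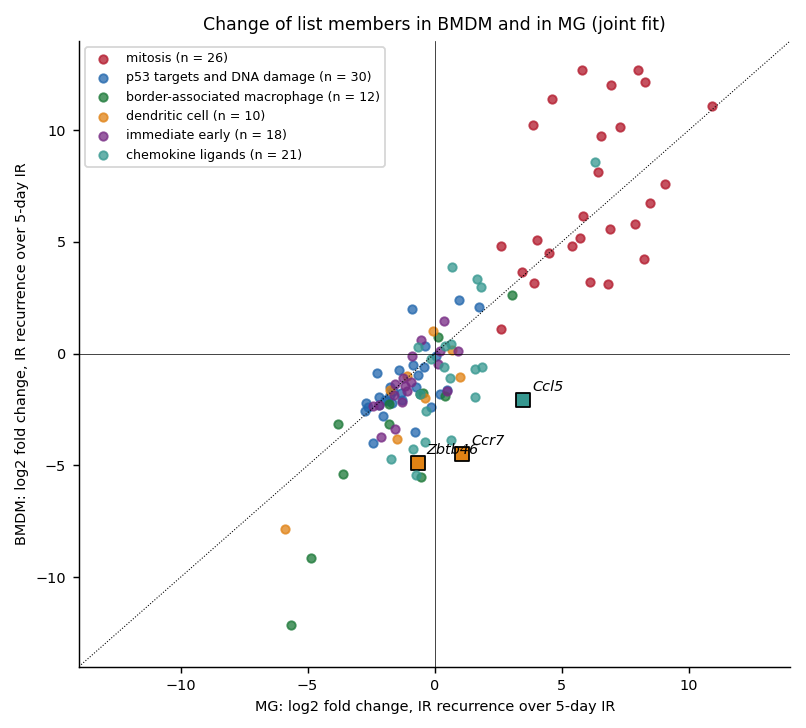
Log2 fold change of the members of 6 lists, IR recurrence over 5-day IR, in BMDM (vertical) and in MG (horizontal) from 1 fit over 46 libraries. The dotted line marks equal change, and squares mark genes whose changes differed (adjusted p under 0.05), which are Ccr7, Zbtb46 and Ccl5.

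The change from 5 days to recurrence was also compared between IR and the combination of IR with BLZ945, in BMDM, with 4 recurrent and 3 5-day mice for the combination. The IR change exceeded the combination change for 48 of 14568 genes (0.329%) and fell short of it for 25 (0.172%). Of the mitosis list 7 genes differed, all with the larger rise after IR. Birc5, with no count at 5-day IR, had a log2 fold change of 2.70 after the combination (adjusted p of the difference 1.54e-05). Ccl2 fell by 3.86 after IR and rose by 2.99 after the combination, a difference of -6.85 ± 1.18 (adjusted p = 0.00689). Its group means were 8.27 log2 CPM in IR recurrence, 12.18 at 5-day IR, 8.78 in recurrence after the combination and 6.00 at 5 days of the combination, so the 2 recurrent stages lay near each other and the 5-day stages apart. Ccl7 had a difference of -8.79 ± 1.82 (adjusted p = 0.0309), and C5ar1 (-4.02 ± 0.63) and Egr2 (-3.93 ± 0.66) differed in the same direction. Mrc1 missed the threshold (-4.00 ± 0.94, adjusted p = 0.0598), and the total of 73 genes was 25 without mouse 65698 and 793 without mouse 65972.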

How the data were processed

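The deposited table holds raw counts of reads per gene, whole numbers that the authors did not normalize, for 23329 mouse symbols in 46 libraries, and it was used as deposited. Per the labels' protocols, RNA of sorted cells was amplified with a Smart-Seq kit, without molecular identifiers, so that counts are not independent molecules. The tools named in the submitters' processing notes are STAR 2.5.0e, CASAVA 1.8, DESeq2 and HTSeq, and the build is mm10. Which annotation and strand setting made the counts is not given in the sources used here. Reads of overlapping genes and of paralogs may therefore be mixed.

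Groups come from the titles, and replicates are separate mice. The test was edgeR 4.0.16 quasi-likelihood (limma 3.58.1, R 4.3.3; TMM, robust, filterByExpr with minimum count 10 and total 15) on the 23 BMDM libraries with 7 stages as groups, which share 1 estimate of spread (16 residual degrees of freedom, biological coefficient of variation 0.651), because 2 mice against 4 give little of their own: the smallest two-sided exact permutation p is 0.133. P-values were adjusted over all genes by Benjamini-Hochberg, threshold 0.05. Except where SD is named, values after ± are standard errors of log2 fold changes. They were taken as the absolute log2 fold change over the square root of the test's F statistic. For genes near 0 counts in a group they do not measure the uncertainty of the fold. Levels are log2 CPM with a prior count of 1. A fold against a group with no count uses a floor of 3 counts over that group; no fold is given at 1 to 3 counts. The floor covers counting error only, while standard errors include variation between mice.

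The members, the 32 gene lists (443 genes, 438 matched by symbol and 5 by synonym) and the tests were chosen with earlier results of these data known. Genes are named by rule: the 8 largest rises and falls that passed without overlap where the higher group averaged 3 log2 CPM or more, up to 4 passing members of smallest p per list (2 where none passed), and followed and checked genes; further list members are given as values. Gene positions are from GENCODE M21, matched by symbol.

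MG and BMDM with the same mouse number in their titles were taken as 1 animal. Of 23 mice, 15 had a correlation of deviations over 0.1 (median 0.164, lowest -0.0678). In a group of 2 mice both values are the same by construction, as for 65698 and 65972 (0.123). Mouse 65698 was over 0.1 although its sex-linked profiles differ, so this cut cannot tell right pairs from wrong ones. Those profiles matched in 22 mice and not in 1. No mouse is in both stages, so a block applies to the difference between populations alone. No pair among the 6 compared libraries was a duplicate (chi-square per degree of freedom at least 18.62). Alternatives were DESeq2 1.42.0, RLE size factors, no filter, other sets of libraries, terms for sex-linked profile and for the Malat1 minus Lars2 level, and leaving out each library or the doubted libraries (both of mouse 65698, BMDM of 122 and 124, MG of 65971 and 68344).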

Additional observations from a re-analysis of the deposited data

Results flagged for a closer look

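In 8 of 119 named genes checked, 1 of the 4 recurrent libraries stood apart from the other 3, and chance alone flags about 1 in 20 groups. Mouse 68343 held 4 of them, with Hspa1b at 7.49 log2 CPM, Rsad2 at 8.85, Cd209e at -1.47 and Prf1 at -2.17. Mouse 68346 held 3, with Mki67 at 6.69, Cd209f at -3.58 and Lyve1 at -2.04. Mouse 68344 had Adm at 3.19, the lowest of the 4. The values of Cd209e, Cd209f, Lyve1 and Prf1 rest on at most 6 counts a library.

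The change from 5 days to recurrence differed between BMDM and MG, by a test of the difference, for Gpc2 (10.16), Cand2 (9.46), Sall3 (9.46), H2-M2 (-8.15), Il12b (-7.91) and Cx3cl1 (-7.75), as BMDM change minus MG change on the log2 scale. Gpc2, Cand2 and Sall3 had no count in the 5-day BMDM libraries, so their sizes depend on the prior count. It differed between IR and IR+BLZ945 in BMDM for Klf5 (12.04), Cdc45 (11.06), Slco1a4 (10.99), Ccl7 (-8.79), Ccl2 (-6.85) and Epor (-6.84), as IR change minus combination change. Klf5, Cdc45 and Slco1a4 had no count at 5-day IR.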

How the results depend on the processing

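Against 1029 higher and 799 lower genes, 1 fit over 46 libraries gave 1698 higher, DESeq2 gave 1989 and 1253, a fit of the compared libraries alone 2163 and 1602, the Malat1 minus Lars2 term 31 and 6, and leaving out the doubted libraries 609 higher. Leaving out 1 library gave 142 to 1342 higher and 258 to 723 lower, the lowest without mouse 65698. For the difference between BMDM and MG (126 genes), DESeq2 gave 533, no filter 81, the compared libraries alone 885, no doubted libraries 241, and leaving out 1 library 6 to 1091. The mouse as a replicate block gave 144 genes and changed the total by less than 1.5 times. For IR against IR+BLZ945 (73 genes), 1 fit over 46 libraries gave 288, DESeq2 610, the Malat1 minus Lars2 term 22, the sex-linked term 43, no filter 47, the compared libraries alone 589, no doubted libraries 114, and leaving out 1 library 25 to 793. The cause was not tested.

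Of 103 named genes that passed, 10 kept their call with the Malat1 minus Lars2 term, 80 lost it and 13 changed sign. A lost call did not always go with a smaller estimate. Without and with the term, Phlda3 was -4.01 and -6.34 and Mrc1 -3.19 and -3.93. Dusp1 was -3.74 and -0.35, and Cd209f -12.16 and -1.83. How many of the 80 moved each way was not counted. Malat1 (0.040 with the term) and Lars2 (0.060) are among the 103. The term is built from their own levels, so their loss of call was set in advance and tests nothing. Signs turned under that term for Aldoc (0.23), B2m (-1.77), Bin1 (-0.34), Cd209g (0.98), Cldn11 (-1.13), Cnp (-0.40), Csf1r (-0.016), Csf2rb2 (-0.30), Cxcl10 (-0.78), Dnajb1 (0.29), Fth1 (-0.61), Igf1 (0.070), Itgam (-0.15), Kdm5d (-11.59), Klf6 (0.25), Ly6c2 (-2.47), Malat1 (0.040), Rn45s (-3.42), Tgfb1 (-0.21) and Tgfbi (-0.85). Leaving out 1 library, the sign also turned without mouse 65972 for Flt3 (-2.45 to 0.077), Itga4 (-1.41 to 0.76), Ly6c2 (-0.11 to 9.41) and Prf1 (-9.35 to 2.20), without 68343 for Igf1 (-0.27 to 0.035) and Ly6c2, and without 65698 for Csf1r (-0.15 to 1.59), which was -0.16 without the doubted libraries. Both 5-day libraries differ from recurrence in Malat1 and Lars2, and leaving out either 5-day mouse leaves that group at 1 library.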
